A study of Mus musculus with 8 samples.

Results

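The 10 genes described here, *Zbtb16*, *Gfra1*, *Ret*, *Sall4*, *Uchl1*, *Kit*, *Lin28a*, *Nanos2*, *Nanos3* and *Etv5*, are used as markers of mouse spermatogonia and were taken by symbol from the 21058 genes whose transcript abundance was measured, where all 10 were found. They were measured in pachytene spermatocytes, meiotic cells that are descended from spermatogonia, purified by Sta-Put sedimentation at unit gravity from pooled testes of adult male mice. The fractions used were those that light microscopy showed to be mostly pachytene spermatocytes, so other cells could remain in them. The 4 *Arid1a* cKO libraries came from males with the genotype *Arid1a* fl/fl; Stra8-Cre Tg/0, and the 4 *Arid1a* WT libraries from males that also carried the floxed allele (*Arid1a* fl/fl or *Arid1a* fl/+) but no Cre transgene. Floxed mice were kept on a CD1 background. *Stra8-Cre* is active from the spermatogonial stage, so the cells that express most of these markers in the testis are the cells in which excision begins, and according to the methods and text of the study excision was incomplete and left escaper spermatocytes with ARID1A. The labels call the libraries biological replicates without saying whether each came from its own purification, so p-values measure only the spread between these libraries, which may be technical.

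Spermatogonia are the mitotic germ cells at the edge of the seminiferous tubule. In the undifferentiated, stem cell-containing population, GDNF from somatic cells binds GFRA1 and signals through the receptor tyrosine kinase RET, which maintains self-renewal and induces the transcription factor ETV5. ZBTB16 (PLZF) and SALL4 are zinc finger transcription factors of these cells, NANOS2 and NANOS3 are RNA-binding proteins that repress the translation or stability of target mRNAs, LIN28A is an RNA-binding protein that blocks the maturation of let-7 microRNAs, and UCHL1 is a ubiquitin hydrolase abundant in spermatogonia and neurons. Under retinoic acid the cells switch on KIT, the receptor for KIT ligand, and become differentiating spermatogonia that later enter meiosis.

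The sequences upstream of *Kit*, the marker whose rise had the smallest adjusted p, and of *Etv5*, the only marker that fell, are shown because these were the largest changes in either direction among the members with more than a handful of counts. They are RefSeq promoter sequences of GRCm38.p6, limited to bases before the start site that lie outside every GENCODE M21 exon. The *Kit* stretch is chr5:75574737-75574915 on the plus strand (179 bases, 69.27% G or C, 10 CG dinucleotides). *Etv5* has windows at 2 start sites, and the stretch shown, at the site whose window holds a searched motif, is chr16:22439720-22439820 on the minus strand (101 bases, 64.36% G or C, 7 CG dinucleotides), and the capitals mark the letters CAGCTG at -207 to -202 from the start site. The stretch before the other *Etv5* start site, chr16:22438369-22438618 (250 bases, 62.0% G or C, 18 CG dinucleotides), holds none of the motifs searched and is not printed.
Kit: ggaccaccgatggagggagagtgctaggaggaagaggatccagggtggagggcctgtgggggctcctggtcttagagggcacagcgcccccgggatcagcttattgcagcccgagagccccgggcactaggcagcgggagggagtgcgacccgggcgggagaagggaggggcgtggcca
Etv5: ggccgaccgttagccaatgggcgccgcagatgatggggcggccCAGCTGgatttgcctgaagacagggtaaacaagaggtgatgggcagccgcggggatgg
Promoter windows running from 250 bases before to 50 bases after a start site were given for 7 members (9 windows), and *Ret*, *Zbtb16* and *Sall4* had none. Both strands were searched for 2 E-boxes with the letters CACGTG and with the letters CAGCTG, for the cAMP response element TGACGTCA, for the ETS site letters CCGGAAG and for a retinoic acid direct repeat. The letters CAGCTG occurred once in an *Etv5* window and once in the *Gfra1* window, at -90 to -85, and are held by 16.3% of all 32851 promoter windows of this length. The other letters were in none of the members' windows, against 7.15% of all windows for CACGTG, 8.86% for CCGGAAG, 1.79% for TGACGTCA and 0.009% for the direct repeat.

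The depth of the libraries was 18308688 to 22044507 estimated counts in *Arid1a* WT and 15850961 to 21626772 in *Arid1a* cKO. *Arid1a*, the targeted gene (chromosome 4, 133679008 to 133756769), was 105, 128, 121 and 98.8 CPM (counts scaled to a common TMM-adjusted library size) in the *Arid1a* WT libraries and 76.4, 81.0, 82.9 and 78.3 CPM in the *Arid1a* cKO libraries. The groups did not overlap, and the log2 fold change was -0.51 (SE, standard error, 0.07; adjusted p = 2.31e-05, edgeR). The genes in the table held 78.1% to 81.1% of all TPM in the *Arid1a* WT libraries and 88.1% to 88.6% in the *Arid1a* cKO libraries, so TPM (abundance scaled for transcript length) and CPM are scaled to different totals.

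Transcript abundance of 8 of the 10 markers was higher in the *Arid1a* cKO than in the *Arid1a* WT libraries, that of *Etv5* was lower, and that of *Nanos3* did not pass the test. These calls come from edgeR's quasi-likelihood test across 17643 genes, with the adjusted p (Benjamini-Hochberg) at or under 0.05. The same test called 36.5% of all tested genes higher and 37.5% lower. All 10 members passed the filter of at least 10 summed counts, *Nanos2* with exactly 10 of which 9 were in *Arid1a* cKO libraries, so that it could be tested only through the genotype in which it was high. Without *Nanos2*, a count added after its values were seen, 7 of 9 members were higher and 1 was lower, with a median log2 fold change of 0.36. The median log2 fold change of the 10 members was 0.41 and that of all tested genes was -0.02. For 6 members (*Gfra1*, *Ret*, *Kit*, *Etv5*, *Zbtb16* and *Uchl1*) the 4 values of one genotype lay wholly above the 4 values of the other, as they did for 68.9% of all tested genes. In bulk libraries, fewer cells of a type and less RNA per cell cannot be told apart.

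**Figure D1:**
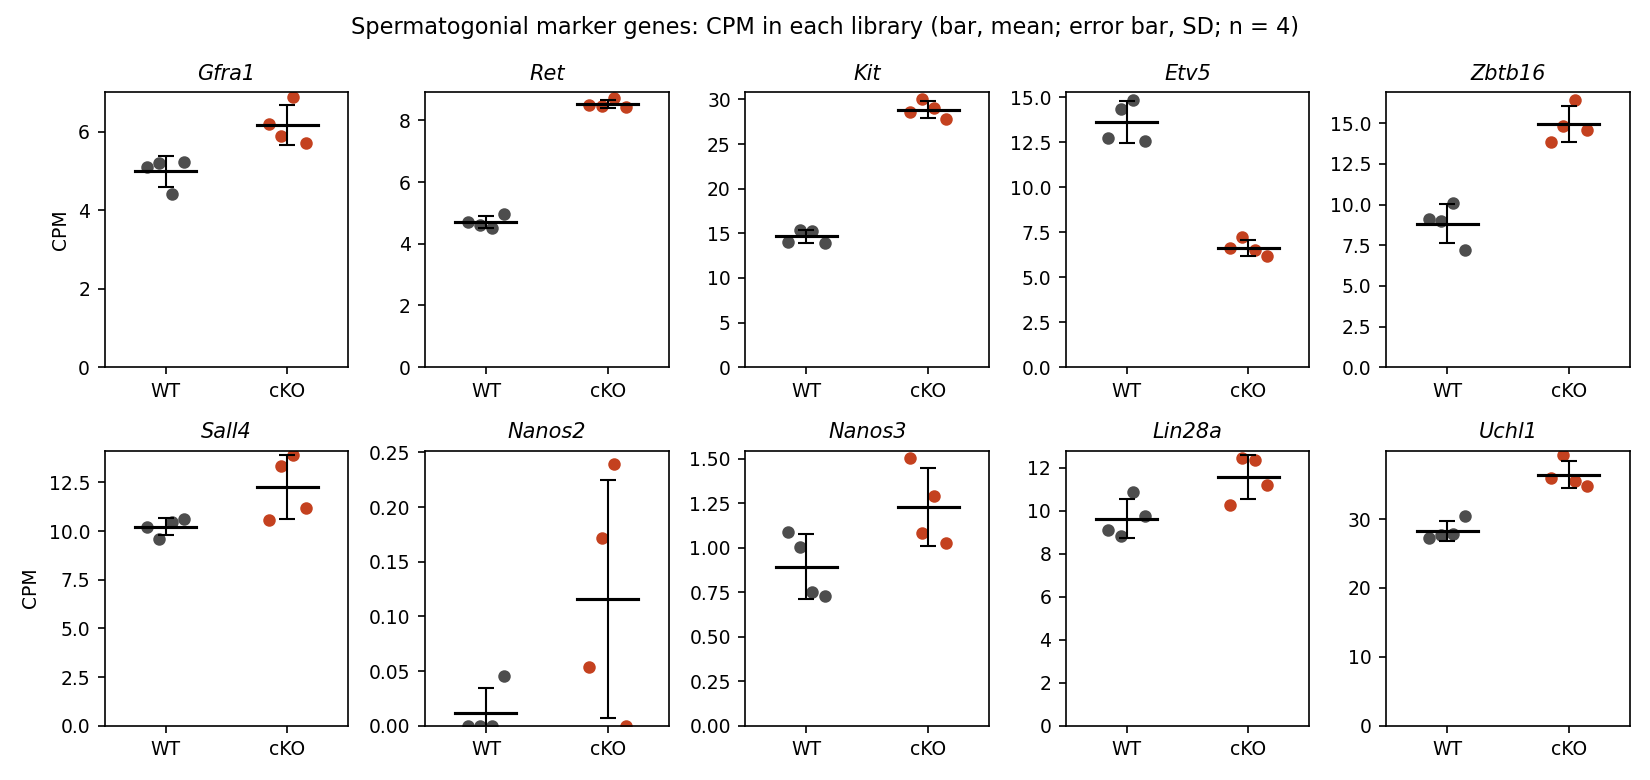
CPM of each marker gene (vertical axes, each from 0) in the 4 *Arid1a* WT and 4 *Arid1a* cKO libraries; points are libraries, bars means and error bars SD. The *Ret*, *Kit* and *Zbtb16* points of the genotypes are far apart, *Etv5* alone is lower in *Arid1a* cKO, and the *Sall4*, *Nanos2*, *Nanos3* and *Lin28a* points overlap.

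Among the receptors, *Ret* (chromosome 6, 118151748 to 118197744) encodes the signalling subunit of the GDNF receptor. It was 4.70, 4.62, 4.51 and 4.96 CPM in the *Arid1a* WT libraries and 8.50, 8.45, 8.71 and 8.42 CPM in the *Arid1a* cKO libraries. Every *Arid1a* cKO library was above every *Arid1a* WT library, and the spread within each genotype was small. The mean rose from 4.70 ± 0.190 to 8.52 ± 0.131 CPM (SD, n = 4 each), a 1.81-fold ratio and a log2 fold change of 0.86 (SE 0.09, adjusted p = 4.56e-07, edgeR). In TPM the ratio was 1.65.

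*Gfra1* (chromosome 19, 58235581 to 58455946) encodes the subunit that binds GDNF. It was 5.10, 5.21, 4.41 and 5.23 CPM in the *Arid1a* WT libraries and 6.19, 5.88, 6.89 and 5.72 CPM in the *Arid1a* cKO libraries. The groups did not overlap, but the highest *Arid1a* WT library was close to the lowest *Arid1a* cKO library. The mean rose from 4.99 ± 0.388 to 6.17 ± 0.518 CPM (SD, n = 4 each), with a log2 fold change of 0.31 (SE 0.11, adjusted p = 0.0167, edgeR). The call was lost when *Arid1a* cKO replicate 3 was left out (log2 fold change 0.25, adjusted p = 0.0705, edgeR) and without TMM scaling (0.21, adjusted p = 0.0769), and over all alternatives the adjusted p was 0.00895 to 0.0769. The difference between the 2 receptor subunits in their change was not tested.

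*Kit* (chromosome 5, 75574987 to 75656722) encodes the receptor that marks differentiating spermatogonia. It was 14.0, 15.4, 15.2 and 14.0 CPM in the *Arid1a* WT libraries and 28.6, 30.0, 29.0 and 27.8 CPM in the *Arid1a* cKO libraries. No other member with a called rise had so small an adjusted p: the mean rose 1.97-fold, from 14.7 ± 0.752 to 28.9 ± 0.943 CPM (SD, n = 4 each), with a log2 fold change of 0.98 (SE 0.06, adjusted p = 2.08e-09, edgeR). On the TPM scale the ratio was 1.89. *Kit* is also used by Leydig cells, and spermatids make a truncated *Kit* transcript from an internal promoter, which a count per gene does not separate. Of 17 spermatid markers 17 were called higher, and their summed TPM was 6640 to 7501 in the *Arid1a* WT libraries and 26810 to 28520 in the *Arid1a* cKO libraries. Of 9 Leydig cell markers 8 were called lower, with a summed TPM of 86.3 to 101 and 9.40 to 11.6, and none of them was at 0 in both genotypes. The part of these cell types in the *Kit* value was not tested.

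Among the transcription factors, *Etv5* (chromosome 16, 22381313 to 22439570) was the member that fell. It was 12.7, 14.4, 14.8 and 12.6 CPM in the *Arid1a* WT libraries and 6.62, 7.25, 6.51 and 6.17 CPM in the *Arid1a* cKO libraries. The highest *Arid1a* cKO library was well below the lowest *Arid1a* WT library. The mean fell to 0.487 of its *Arid1a* WT value, from 13.6 ± 1.16 to 6.64 ± 0.452 CPM (SD, n = 4 each), with a log2 fold change of -1.04 (SE 0.09, adjusted p = 7.1e-08, edgeR). Sertoli cells, the somatic cells that nurse the germ line, also use *Etv5*. Of 12 Sertoli cell markers 11 were called lower and *Rhox5* was listed at 0 in every library, and their summed TPM was 659.4 to 735.9 in the *Arid1a* WT libraries and at most 207.4 in an *Arid1a* cKO library. *Sox9* and *Gata4*, 2 defining members of that list, had log2 fold changes of -1.32 and -1.59. The part of Sertoli cells in the *Etv5* value was not tested. The longest *Etv5* transcript also shared 32.3% of its 31-base words with *Gm4798*, a processed pseudogene on chromosome 10, so its counts could be split with that copy if the authors' annotation held it.

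*Zbtb16* (chromosome 9, 48651797 to 48836225) was 9.10, 8.96, 10.1 and 7.19 CPM in the *Arid1a* WT libraries and 13.8, 14.8, 16.5 and 14.6 CPM in the *Arid1a* cKO libraries. The groups were separate, with *Arid1a* WT replicate 4 the lowest of all. The mean rose 1.69-fold, from 8.83 ± 1.21 to 14.9 ± 1.11 CPM (SD, n = 4 each), with a log2 fold change of 0.76 (SE 0.10, adjusted p = 7.15e-06, edgeR). In testes of younger males the paper reports no significant difference between genotypes in the number of spermatogonia with ZBTB16 protein. That is a count of cells in the tissue, not a measure of RNA in purified fractions.

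*Sall4* (chromosome 2, 168748332 to 168767201) was 10.2, 9.60, 10.5 and 10.6 CPM in the *Arid1a* WT libraries and 10.6, 13.4, 13.9 and 11.2 CPM in the *Arid1a* cKO libraries. *Arid1a* cKO replicates 2 and 3 were high, and *Arid1a* cKO replicate 1 lay within the *Arid1a* WT range. The means were 10.2 ± 0.446 and 12.3 ± 1.64 CPM (SD, n = 4 each), and the log2 fold change of 0.27 (SE 0.10) passed the test with an adjusted p of 0.0215 in edgeR. On the TPM scale the direction turned: the means were 4.23 ± 0.494 in *Arid1a* WT and 4.11 ± 0.559 in *Arid1a* cKO (SD, n = 4 each; exact permutation test, two-sided, p = 0.629). With offsets for transcript length the log2 fold change was 0.06 (adjusted p = 0.715, edgeR), and over all alternatives the adjusted p was 0.00613 to 0.767.

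Among the RNA-binding proteins, *Lin28a* (chromosome 4, 134003330 to 134019196) was 9.10, 8.83, 10.8 and 9.74 CPM in the *Arid1a* WT libraries and 10.3, 12.4, 12.4 and 11.2 CPM in the *Arid1a* cKO libraries. *Arid1a* WT replicate 3 was above *Arid1a* cKO replicate 1, so the groups overlapped. The means were 9.63 ± 0.892 and 11.6 ± 1.03 CPM (SD, n = 4 each), with a log2 fold change of 0.27 (SE 0.09, adjusted p = 0.0172, edgeR). The call was lost without TMM scaling (0.17, adjusted p = 0.162) and with offsets for transcript length (0.26, adjusted p = 0.0677), and over all alternatives the adjusted p was 0.00406 to 0.289.

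*Nanos3* (chromosome 8, 84173733 to 84176552) was 1.09, 1.01, 0.752 and 0.728 CPM in the *Arid1a* WT libraries and 1.51, 1.08, 1.29 and 1.03 CPM in the *Arid1a* cKO libraries. These values rest on 15 to 28 counts per library, and the groups overlapped. The log2 fold change was 0.46 (SE 0.23, adjusted p = 0.0843, edgeR), which missed the threshold at this depth. In TPM the means were 3.43 ± 0.903 and 3.65 ± 0.468 (SD, n = 4 each; exact permutation test, two-sided, p = 0.657).

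*Nanos2* (chromosome 7, 18987524 to 18988962) was at the limit of detection. It had 0, 0, 0 and 1 counts in the *Arid1a* WT libraries and 1, 3, 5 and 0 counts in the *Arid1a* cKO libraries. Summed over libraries, 9 counts against 1 gave a ratio of 9.74 after scaling for depth, with an exact 95% interval of 1.35 to 427 that covers counting error only. The edgeR call (adjusted p = 0.038) rests on these 10 counts, was lost with DESeq2 (adjusted p = 0.0878) and when any of *Arid1a* WT replicates 1, 2 and 3 was left out (0.0672 to 0.0844, edgeR), and had no test when *Arid1a* WT replicate 4 or any of *Arid1a* cKO replicates 1, 2 and 3 was left out because the gene then had under 10 counts. Over the alternatives that could test it the adjusted p was 0.0156 to 0.138. Of its 31-base words, 48.0% are shared with *Gm45058* on the other strand. Whether the counting used strand is not given in the sources used here, so reads of the 2 genes may not have been told apart.

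*Uchl1* (chromosome 5, 66676121 to 66687234), the ubiquitin hydrolase, was 27.3, 27.6, 27.8 and 30.4 CPM in the *Arid1a* WT libraries and 36.0, 39.3, 35.6 and 34.8 CPM in the *Arid1a* cKO libraries. The groups were separate, with *Arid1a* WT replicate 4 and *Arid1a* cKO replicate 2 the highest of their genotypes. The mean rose 1.29-fold, from 28.3 ± 1.42 to 36.4 ± 1.99 CPM (SD, n = 4 each), with a log2 fold change of 0.36 (SE 0.06, adjusted p = 6.44e-05, edgeR). Its antisense gene *Uchl1os* shares 17.6% of its 31-base words, and the share of reads from that gene was not tested. *Gfra1*, *Sall4* and *Lin28a* shared 8.4%, 5.2% and 2.2% of their words with opposite-strand genes (*Gm16277*, *Gm14261* and *Gm13061*). The share of reads from those genes was not tested either.

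**Figure D2:**
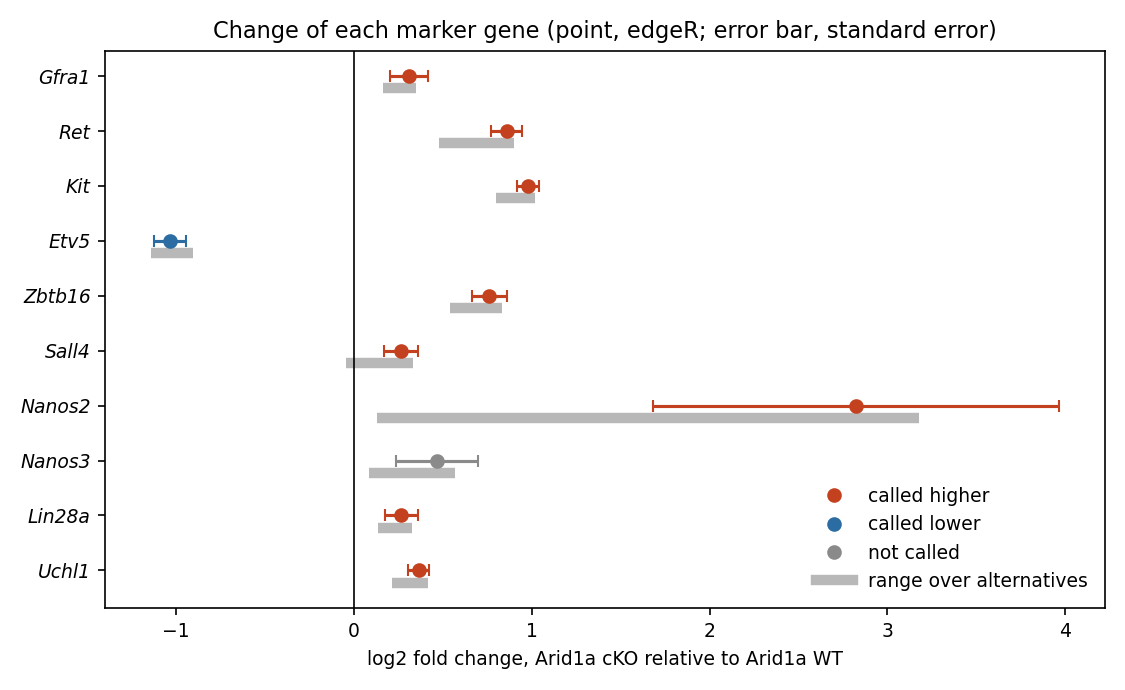
Log2 fold change of each marker gene in *Arid1a* cKO relative to *Arid1a* WT (horizontal axis; point, edgeR estimate; error bar, SE), with the range over the alternative settings as a grey bar. The *Sall4* bar alone crosses 0, the *Etv5* bar stays below 0, and the bars of the other 8 genes stay above 0, that of *Nanos2* running from 0.13 to 3.18.

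The calls of *Ret*, *Kit*, *Etv5*, *Zbtb16* and *Uchl1* held under all 19 alternative settings. Their log2 fold changes ranged over these settings from 0.48 to 0.90 for *Ret*, 0.80 to 1.02 for *Kit*, -1.14 to -0.91 for *Etv5*, 0.54 to 0.83 for *Zbtb16* and 0.21 to 0.42 for *Uchl1*, and the settings include log2(TPM + 1), a scale that understates the change of low genes. For these 5 genes, and for *Gfra1*, the difference of the means in CPM gave the smallest p that 4 libraries against 4 allow (exact permutation test, two-sided, p = 0.0286). That p follows from the lack of overlap already given for these genes and adds nothing to it. The count of 8 called rises stayed at 8 without *Arid1a* cKO replicate 4 and fell to 7 without *Arid1a* WT replicate 1, 3 or 4 or *Arid1a* cKO replicate 1. It was 5 without *Arid1a* WT replicate 2, 5 without *Arid1a* cKO replicate 2 and 4 without *Arid1a* cKO replicate 3, and in these 3 cases *Sall4* and *Lin28a* lost their calls and *Nanos2* lost its call or its test, while *Gfra1* lost its call in the last of them.

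The levels of the members relative to each other were compared per transcript length, in TPM. In the *Arid1a* WT libraries *Uchl1* was far above the rest at 45.0 ± 2.36 TPM (SD, n = 4). *Etv5* (5.15 ± 0.625), *Kit* (4.84 ± 0.567), *Sall4* (4.23 ± 0.494), *Lin28a* (4.21 ± 0.487), *Nanos3* (3.43 ± 0.903) and *Zbtb16* (2.89 ± 0.548) followed, and each of these overlapped its neighbour in the order. *Gfra1* (1.79 ± 0.106 TPM) was above *Ret* (1.52 ± 0.0557 TPM) in every library, and *Nanos2* was at 0.0113 ± 0.0227 TPM. In the *Arid1a* cKO libraries *Kit* had rank 2 at 9.16 ± 0.873 TPM, apart from all other members. *Lin28a* (4.72 ± 0.682 TPM), *Zbtb16* (4.63 ± 0.343 TPM), *Sall4* (4.11 ± 0.559 TPM) and *Nanos3* (3.65 ± 0.468 TPM) followed, each overlapping its neighbour. *Ret* (2.50 ± 0.0535 TPM), *Etv5* (2.27 ± 0.158 TPM) and *Gfra1* (2.12 ± 0.171 TPM) came below them, and *Etv5* overlapped both *Ret* and *Gfra1*, so its rank of 8 by the mean was not resolved from theirs. Every *Ret* value was above every *Gfra1* value in these libraries. The 10 members summed to 69.5, 76.1, 74.6 and 72.3 TPM in the *Arid1a* WT libraries and to 82.8, 92.2, 86.1 and 81.7 TPM in the *Arid1a* cKO libraries. *Uchl1* made up most of these sums, with means of 45.0 and 52.4 TPM, so they say little about the other members.

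**Figure D3:**
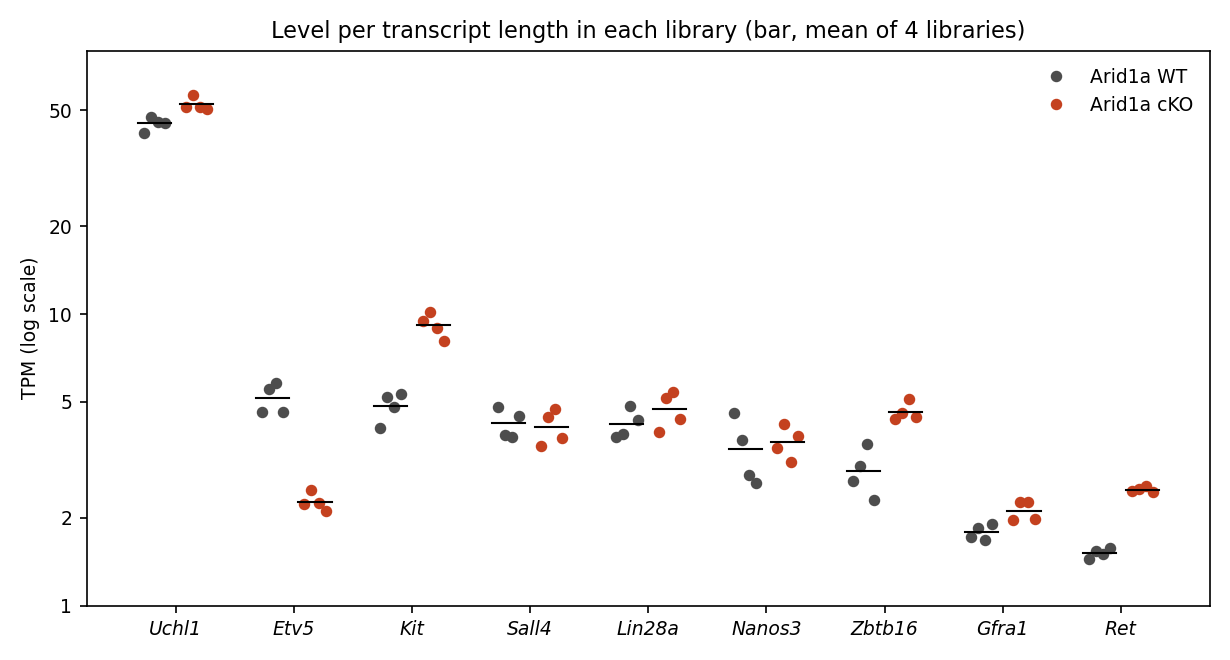
TPM of 9 marker genes on a log axis, in order of their *Arid1a* WT mean, with each library as a point and the mean of 4 libraries as a bar; *Nanos2*, at 0 TPM in 3 *Arid1a* WT libraries, is left out. *Uchl1* lies above 40 TPM in every library, and the other genes lie between 1.45 and 10.1 TPM.

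The sum over members was small beside that of the 13 pachytene spermatocyte markers, which was 11590 to 12710 TPM in the *Arid1a* WT libraries and 9370 to 9484 TPM in the *Arid1a* cKO libraries, where 3 of them were called higher and 9 lower. Of 13 leptotene and zygotene markers 6 were higher and 6 lower, and their sum was 1562 to 1677 TPM in *Arid1a* WT and 812.7 to 873.1 TPM in *Arid1a* cKO. The sum follows its most abundant genes, *Tex101*, *Sycp3* (also on the pachytene list), *Sycp2* and *Hormad1*, which were called lower, as were *Spo11* and *Meiob*. Less abundant genes were called higher: *Rec8* (log2 fold change 2.50), *Rad51ap2* (2.05), *Dmc1* (1.98), *Prdm9* (1.73), *Sycp1* (0.83) and *Gm960* (0.79). The sum therefore does not describe the list as a whole. Of 12 markers of peritubular, endothelial and interstitial cells 10 were higher and 1, the endothelial gene *Pecam1* (log2 fold change -0.83), was lower, and the sum was 12.4 to 16.0 TPM in *Arid1a* WT and 24.6 to 27.7 TPM in *Arid1a* cKO. Of the 9 markers of macrophages and blood that could be matched, 6 were higher and 1, the red blood cell gene *Hba-a1* (-2.12), was lower, with a sum of 8.16 to 9.67 TPM in *Arid1a* WT and 11.6 to 13.9 TPM in *Arid1a* cKO. The part of these cells in the values of the spermatogonial markers was not tested.

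**Figure D4:**
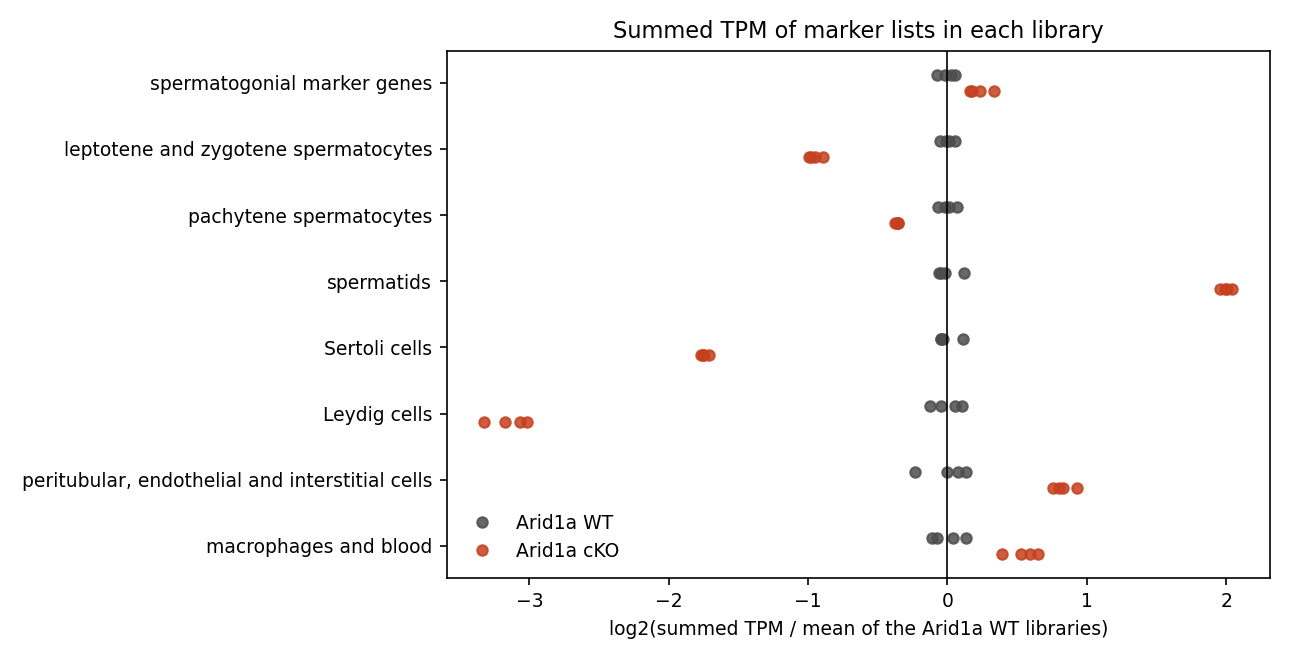
Summed TPM of the 10 spermatogonial markers and of 7 other marker lists in each library, as log2 of its ratio to the *Arid1a* WT mean. The spermatogonial sum, most of which is *Uchl1*, is shifted little to the right in *Arid1a* cKO, the spermatid sum furthest to the right and the Leydig sum to 0.113 times its *Arid1a* WT mean.

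Other genes of spermatogonia were called in both directions. Of 28 further genes of undifferentiated spermatogonia 27 were tested, 8 were higher, 7 were lower and 12 were not called, and their median log2 fold change was 0.03. *Ccnd1*, a cyclin of the G1 phase, rose from 5.24 ± 0.391 to 16.5 ± 1.91 CPM (log2 fold change 1.65), the transcription factor *Lhx1* from 0.502 ± 0.106 to 1.55 ± 0.239 CPM (1.61) and the Polycomb gene *Bmi1* from 56.4 ± 3.32 to 133 ± 3.93 CPM (1.23; SD, n = 4 each). *Id4*, an inhibitor of DNA binding used as a stem cell marker, fell from 90.3 ± 3.34 to 14.4 ± 0.361 CPM (-2.65). Its *Arid1a* WT level was far above those of the members *Gfra1* (4.99 CPM) and *Zbtb16* (8.83 CPM). Which cells held the *Id4* transcripts was not tested, so the fall cannot be read as one of stem cells. The early growth response factor *Egr2* fell by 0.82 and the remodeler *Chd4* by 0.61 on the log2 scale. The *Egr2* call was lost with length offsets (-0.49, adjusted p = 0.11, edgeR) and with limma on log2(TPM + 1) (adjusted p = 0.0749) and on log2(TPM + 0.1) (adjusted p = 0.0761).

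Of 16 further genes of differentiating spermatogonia 7 were higher, 6 were lower and 3 were not called, with a median of -0.02. *Prdm9*, the methyltransferase that places recombination sites, rose from 3.40 ± 1.18 to 11.2 ± 0.469 CPM (log2 fold change 1.73). It is also on the list of leptotene and zygotene markers, so its rise is not particular to spermatogonial genes. The helix-loop-helix factor *Sohlh2*, an activator of *Kit*, rose from 7.24 ± 0.306 to 16.1 ± 0.309 CPM (1.16), and the retinoic acid binding protein gene *Crabp1* from 4.67 ± 0.320 to 9.04 ± 0.872 CPM (0.95; SD, n = 4 each). *Dnmt1*, the maintenance DNA methyltransferase, fell from 199 ± 4.72 to 52.0 ± 2.49 CPM (-1.94), *Meioc*, required for the meiotic programme, from 375 ± 23.1 to 147 ± 3.20 CPM (-1.35), and *Uhrf1*, a partner of *Dnmt1*, by 0.51 on the log2 scale. *Dmrtb1*, the gene of the list with the highest mean TPM, was at 789 ± 75.5 and 797 ± 17.5 CPM (adjusted p = 0.85, edgeR).

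The signalling genes around the receptors moved in both directions. Of 34 genes of the GDNF and KIT pathways 11 were higher, 16 were lower and 7 were not called, with a median of -0.16. The ligand genes *Gdnf* and *Kitl*, which are products of somatic cells in the testis, had log2 fold changes of -1.17 (adjusted p = 0.00101, edgeR) and -1.41 (adjusted p = 2.14e-07, edgeR). *Gdnf* was low, with means of 1.06 CPM in *Arid1a* WT and 0.460 CPM in *Arid1a* cKO, and *Kitl* had 9.31 and 3.46 CPM. Their receptors *Ret* and *Kit* had log2 fold changes of 0.86 and 0.98, and *Gfra1*, the subunit that binds GDNF, had 0.31. The ligands were singled out after their values were seen. Sertoli cell markers fell in the same libraries as given above, and the part of Sertoli cells in the ligand values was not tested. Of the coreceptors of the GDNF family, *Gfra2* rose from 15.0 ± 1.30 to 39.6 ± 2.49 CPM (1.40) and *Gfra4* fell from 34.0 ± 2.63 to 11.96 ± 0.662 CPM (-1.51; SD, n = 4 each), beside the smaller rise of *Gfra1*. The coreceptor gene *Gfra3* was not called (log2 fold change -0.02, adjusted p = 0.964, edgeR). The kinase genes *Mapk3* and *Akt1* rose by 0.73 and 0.70. The kinase gene *Pik3cb* and the chemokine receptor gene *Cxcr4* changed by -1.73 and -1.64. *Map2k2*, with the highest mean TPM of the list, missed the threshold (-0.13, adjusted p = 0.0564, edgeR).

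Of 14 paralogs of the members 5 were higher, 4 were lower and 5 were not called, with a median of 0.09. *Nanos1* rose from 1.61 ± 0.127 to 4.35 ± 0.253 CPM (log2 fold change 1.43), *Sall1* by 1.34 and *Csf1r*, a receptor of the *Kit* family and also a macrophage marker, by 1.35. *Lin28b* fell from 27.5 ± 7.02 to 12.1 ± 1.05 CPM (-1.18), while *Lin28a* had a log2 fold change of 0.27. *Sall3* had a log2 fold change of -1.18, and *Zbtb32*, a PLZF-like zinc finger gene, fell from 156 ± 19.4 to 44.9 ± 0.929 CPM (-1.80; SD, n = 4 each). *Uchl3*, the paralog with the highest mean TPM, was at 127 ± 15.7 and 142 ± 2.09 CPM (0.16, adjusted p = 0.059, edgeR). The differences between paralogs in their change were not tested.

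Of 18 genes that act with NANOS or LIN28 proteins 4 were higher, 8 were lower and 6 were not called, with a median of -0.17. The list holds 10 subunits of the CCR4-NOT deadenylase that NANOS2 recruits, a subgroup singled out after its values were seen, of which 8 were lower and 2 were not called (*Cnot6*, -0.09, adjusted p = 0.13, and *Cnot6l*, -0.00, adjusted p = 0.987, edgeR). Of all tested genes 37.5% were lower. Among the subunits that fell were *Cnot8* from 17.8 ± 0.866 to 5.90 ± 0.206 CPM (log2 fold change -1.59), *Cnot9* (-0.85) and *Cnot10* (-0.68). *Dis3l2*, the nuclease that degrades uridylated let-7 precursors, rose from 27.7 ± 2.23 to 93.3 ± 4.20 CPM (1.75), the uridylyltransferase gene *Tut7* rose by 0.37, and *Dazl*, a germ cell RNA-binding protein gene, by 0.78 on the log2 scale. *Ddx4*, the gene of the list with the highest mean TPM, was at 719 ± 41.5 and 780.2 ± 31.7 CPM (0.12, adjusted p = 0.0675, edgeR), and was called higher under 6 alternatives. Over the 5 lists together, 35 of 109 tested genes were higher (32.1%) and 41 were lower (37.6%), with a median of -0.03. These shares lie near those of all tested genes.

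**Figure D5:**
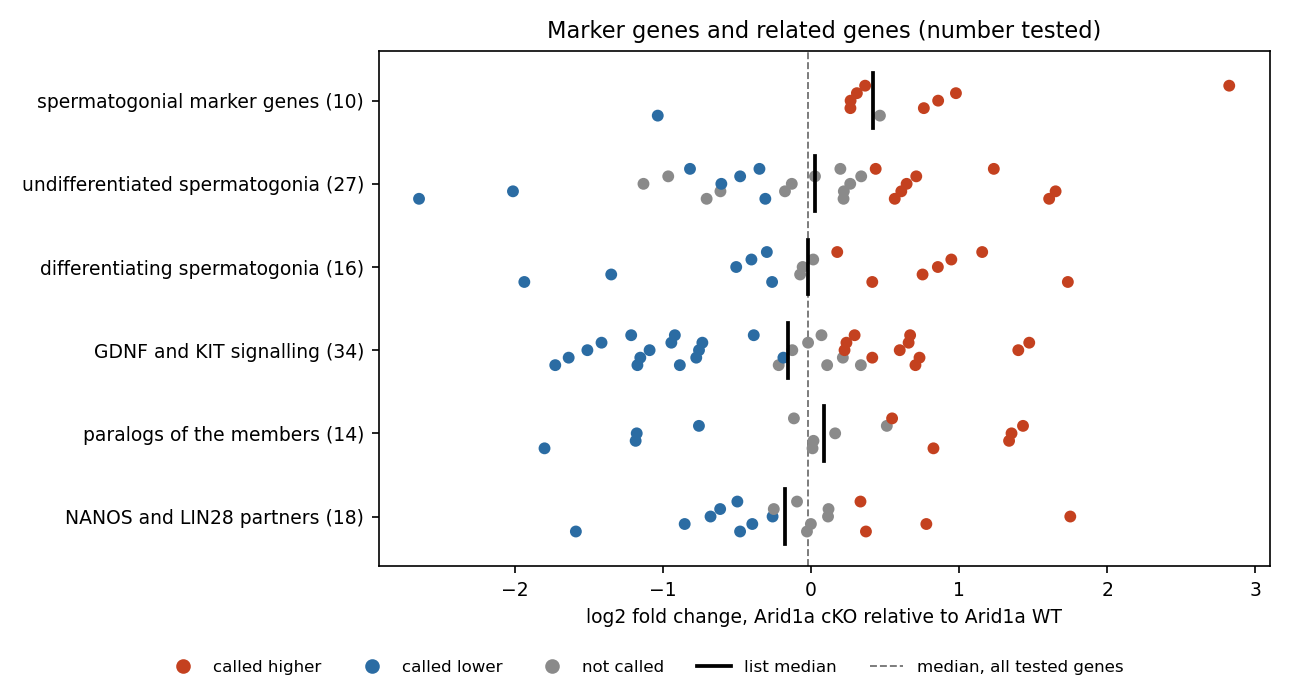
Log2 fold change (horizontal axis) of the 10 marker genes and of the genes of 5 related lists, with the number tested in brackets; each point is a gene, coloured by its call, the black bar is the list median and the dashed line the median of all tested genes. The marker genes lie mostly to the right with a median of 0.41, and the medians of the other lists lie between -0.17 and 0.09.

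The ratio of estimated counts to TPM gives the average length of the transcripts that a gene used in a library, relative to the median gene. It could be tested for 8 members. On the scale of the median gene it was called higher in *Arid1a* cKO for *Etv5* (log2 change 0.07, SE 0.01, adjusted p = 6.92e-05, limma) and *Ret* (0.07, SE 0.01, adjusted p = 0.00094, limma). A change was called for 53.1% of the 12780 genes tested. The 1233 genes with a single annotated transcript, whose length cannot change in this way, had a median log2 change of 0.07. The changes of *Etv5* and *Ret* were of that same size, so their calls do not show that longer transcripts were used. Centred on those genes, an alternative added after the data were seen, 0 of the 8 members passed the limma test (0 at an unadjusted p under 0.05; no other tool was run) and 17.3% of all genes did, and the changes of *Etv5* and *Ret* were 0.01 (adjusted p = 0.496) and 0.00 (adjusted p = 0.933). *Sall4* had relative lengths of 1.35, 1.69, 1.92 and 1.54 in the *Arid1a* WT libraries and 1.86, 1.92, 1.88 and 1.89 in the *Arid1a* cKO libraries, a log2 change of 0.23 (SE 0.10, adjusted p = 0.101, limma). That is the gene whose direction differed between CPM and TPM. *Nanos2* and *Nanos3* had too few counts for this measure.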

How the data were processed

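RNA-seq libraries of 4 *Arid1a* WT and 4 *Arid1a* cKO pachytene spermatocyte samples were compared, with groups and replicate numbers from the sample labels and 0 table columns left unmatched. Reads were quantified by the authors with Salmon and collapsed to genes with tximport on mm10, and they deposited estimated counts per gene, not scaled for depth or length. A second deposited table holds TPM on the scale of the whole transcriptome. The authors' table of log2 fold changes and p-values from DESeq2 was not used here.

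Entrez identifiers were matched to RefSeq symbols of GRCm38.p6 (21036 of 21058), which also gave coordinates and promoters. Shared 31-base words and exons came from GENCODE M21. Estimated counts were rounded to whole numbers, and genes with at least 10 summed counts were tested for genotype alone in edgeR 4.0.16 (TMM, glmQLFit, glmQLFTest; R 4.3.3), with p-values adjusted over all of them by the Benjamini-Hochberg method. SE was taken from the log2 fold change and the F statistic. Average transcript length was the count divided by TPM, centred on each library's median over genes with at least 20 counts in every library, and was tested with limma 3.58.1. Single genes were compared by exact permutation over 70 assignments of libraries. The edgeR and limma steps were tested on simulated data with known changes. Python 3.11.15 (pandas 2.3.3, matplotlib 3.10.9) made tables and plots.

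The alternatives were DESeq2 1.42.0, 3 other scalings, 2 other filters, a replicate block, length offsets, limma on log2(TPM + 1) or log2(TPM + 0.1), a threshold of 0.01, and each library left out. The members, lists and tests were chosen with earlier results of these data known. Named were *Arid1a*, all members and, from each related list, the gene with the highest mean TPM and up to 3 called genes with the largest rise and 3 with the largest fall, given an average log2 CPM of at least 0 and genotypes that do not overlap. Outside this rule, *Gdnf*, *Kitl*, *Gfra3*, *Cnot6* and *Cnot6l* were named from the related lists after their values were seen. From the cell type marker lists mainly counts and ranges are given, and *Sox9*, *Gata4*, *Rhox5*, *Pecam1* and *Hba-a1* were named after their values were seen. The called leptotene and zygotene markers were likewise named after their values were seen. Counting intervals cover counting error only.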

Additional observations from a re-analysis of the deposited data

Results flagged for a closer look

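In 58 groups of 4 values, 1 library stood apart from the other 3 in 5 cases by Dixon's test, where chance gives about 2.90. *Gfra1* in *Arid1a* WT replicate 3 was 4.41 CPM, below the other *Arid1a* WT libraries at 5.10 to 5.23 CPM (ratio of gap to range 0.834). *Uchl1* in *Arid1a* cKO replicate 2 was 56.2 TPM, above the other *Arid1a* cKO libraries at 50.7 to 51.4 TPM (ratio 0.866). *Nanos2* in *Arid1a* WT replicate 4 was 0.0455 CPM and 0.0453 TPM, from a single count, where the other *Arid1a* WT libraries had 0 (ratio 1.0 on both scales); with 3 values at 0 any nonzero value gives this ratio, so these 2 cases carry no information, and 3 of 54 groups remain without *Nanos2*, where chance gives about 2.70. The summed TPM of the Sertoli cell markers in *Arid1a* WT replicate 3 was 735.9, above the other *Arid1a* WT libraries at 659.4 to 666.7 (ratio 0.905), all of which lay above every *Arid1a* cKO library.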

How the results depend on the processing

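The number of members called higher was 8, and became 5 with library size in place of TMM, 5 with limma on log2(TPM + 1), 5 with limma on log2(TPM + 0.1) and 4 at an adjusted p of 0.01; with each library left out in turn it was 4 to 8, and without *Nanos2* it was 7. The genes that lost their calls were among *Gfra1*, *Sall4*, *Lin28a* and *Nanos2*, and 1 member was called lower under every setting tried. *Sall4* changed direction with limma on log2(TPM + 1) (-0.0351) and on log2(TPM + 0.1) (-0.0431). The cause was not tested. The number of members called longer on the scale of the median gene was 2, with a shift that genes with 1 annotated transcript shared. It was 0 of 5 members tested with at least 100 counts in every library (1 at an unadjusted p under 0.05), where *Etv5* and *Ret* were no longer among the genes tested. It was 0 when centred on genes with 1 annotated transcript (0 at an unadjusted p under 0.05), and 2 to 3 with each library left out. Changes in average length that did not pass the test turned sign when libraries were left out for *Gfra1* (-0.0379 to 0.0463), *Kit* (-0.0973 to 0.0282) and *Zbtb16* (-0.0256 to 0.0295), and that of *Lin28a* was -0.0325 when centred on genes with 1 transcript.

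Among the 34 related genes named by the stated rule, 616 of 646 values kept their side of the threshold and direction. Of the other values, 4 lost a call (*Egr2* under 3 settings and *Tut7* under 1), 19 gained one and 7 changed direction. *Gdnf*, *Kitl*, *Gfra3*, *Cnot6* and *Cnot6l* are not in this count. The gains were called rises of *Ddx4* under 6 settings (0.14 to 0.15) and *Uchl3* under 7 (0.17 to 0.23), and called falls of *Map2k2* under 6 (-0.25 to -0.12). *Ddx4* also turned to -0.0226 with limma on log2(TPM + 1) and -0.0226 on log2(TPM + 0.1), and *Dmrtb1*, also not called, to -0.0815 without TMM, -0.0277 with length offsets and -0.119 with limma on both TPM scales, with a range of -0.046 to 0.0754 when libraries were left out. Same-numbered libraries share only a number: the correlations of their deviations were 0.162, 0.0125, 0.0852 and -0.137, and *Arid1a* WT replicates 2, 3 and 4 correlated best with *Arid1a* cKO replicates 4, 4 and 1. With the replicate number as a block, 7 members were higher and 1 lower (*Nanos2* had an adjusted p of 0.0619 in edgeR). With that block 37 related genes were higher and 43 lower, and 2 members were called longer on the scale of the median gene. Without TMM the median of all genes moved by -0.10 on the log2 scale. Depth limits *Nanos2* and *Nanos3*, with at most 5 and 28 counts in a library.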
